A study of Mus musculus with 4 samples.

Results

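NF-YC-only regions are places in the genome of mouse embryonic stem cells where a binding site was called for NF-YC and none for NF-YA or NF-YB. They were found by pooling the deposited sites of the 3 subunits and chaining sites whose centres lay within 200 bp of the next into regions. Regions that held NF-YC sites and no NF-YA or NF-YB site were kept. They numbered 278 of 5350 regions (5.2%, exact 95% binomial interval 4.62 to 5.83), and each held 1 NF-YC site. They therefore also make up 278 of the 2675 sites of the NF-YC list (10.4%, 9.26 to 11.6).

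NF-Y is a transcription factor of 3 different subunits. NF-YC pairs with NF-YB through histone-fold domains, which resemble those of core histones. NF-YA joins that pair and reads the CCAAT box, a DNA motif found in many promoters. Chromatin immunoprecipitation sequencing (ChIP-seq) recovers DNA cross-linked to a protein, and a pile-up of tags over the input library marks a binding site.

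The cells were E14Tg2a, an embryonic stem cell line of the 129/Ola strain, untreated in all libraries and used at passages 20 to 35. The series held 4 libraries, 1 each for NF-YA, NF-YB and NF-YC and 1 of input DNA without antibody. Per the labels, the NF-YC antibody was a rabbit polyclonal, as was that for NF-YB, and the NF-YA antibody a mouse monoclonal. Site calling used 11390494 NF-YC tags, 11479998 NF-YA tags and 13859303 NF-YB tags, and the input held 13767116. No library had a replicate, so no value below has a replicate error and no difference was tested. Intervals are exact binomial ones over sites or regions and cover counting error only. The regions were chosen by these measured calls, that is, NF-YC tags and fold that passed the caller's minima and NF-YA and NF-YB tags that gave no site, so the absence of those subunits is no finding. The NF-YC tags, fold and p-value come from the contrast the choice used and are given as a description.

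Most NF-YC-only regions had few NF-YC tags, and a small part had many. The median was 20 tags (quartiles 15 and 29, range 14 to 118), against 36 tags over the whole NF-YC list. The median region stood at the percentile 18.8 of the NF-YC list by tag count and 32.7 by fold. At the list's minimum of 14 tags lay 48 of the 278 regions (17.3%, 13 to 22.2), and 131 (47.1%, 41.1 to 53.2) had under 20 tags. At the other end, 30 regions (10.8%, 7.4 to 15) had 50 or more tags, and 52 (18.7%, 14.3 to 23.8) had more tags than the median NF-YC site. Fold over input, a value of the authors' caller, had a median of 11.8 (quartiles 8.46 and 18.1, range 7.01 to 73.7). The authors' p-value per site ran from 4.0e-06 to 6.1e-04.

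Among NF-YC sites, those of NF-YC-only regions were closest in tag count to the ones shared with NF-YB alone. The 56 NF-YC sites in regions of NF-YB and NF-YC had a median of 21 tags and a median fold of 14.7. The 613 sites shared with NF-YA alone had 29 tags and a fold of 12.5, and the 1728 sites in regions of all 3 subunits had 44 tags and a fold of 18.7. Sites at the 14-tag minimum made up 4.89% (3.33 to 6.91) of those shared with NF-YA alone and 1.56% (1.03 to 2.27) of those in regions of all 3 subunits. Of those shared with NF-YB alone they made up 8.93% (2.96 to 19.6), an interval that overlapped that of NF-YC-only sites (13 to 22.2). The other single-subunit regions also stood low in their own lists. NF-YB-only regions had a median of 21 NF-YB tags, at the percentile 17.4 of the NF-YB list, and NF-YA-only regions 21 NF-YA tags, at the percentile 25.3.

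The share of NF-YC sites that had no partner was smaller in the higher tag classes of the NF-YC list. It was 28.2% of the sites with 14 to 19 tags (24.1 to 32.5, 131 of 465) and 13.6% of those with 20 to 29 tags (11 to 16.7, 79 of 579). It was 5.2% with 30 to 49 tags (3.7 to 7.07, 38 of 731) and 3.33% with 50 or more tags (2.26 to 4.72, 30 of 900). The intervals of the first 3 classes did not overlap, while those of the last pair did. NF-YB-only sites went from 41.1% to 2.27% of the NF-YB list over the same classes, and NF-YA-only sites from 74.6% to 8.15% of the longer NF-YA list. In the classes under 50 tags the NF-YC share lay below both others with no overlap of intervals. In the class of 50 or more tags the NF-YC interval overlapped that of NF-YB (1.5 to 3.29) and lay below that of NF-YA (6.85 to 9.6). Lists of different length and depth were set side by side here, and the lowest NF-YB class starts at that list's minimum of 15 tags. With every list cut to the length of the shortest, the NF-YC-only share of the whole NF-YC list became 20%, from 10.4%. Whether the order of the 3 lists comes from their length or depth was not tested.

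**Figure D1:**
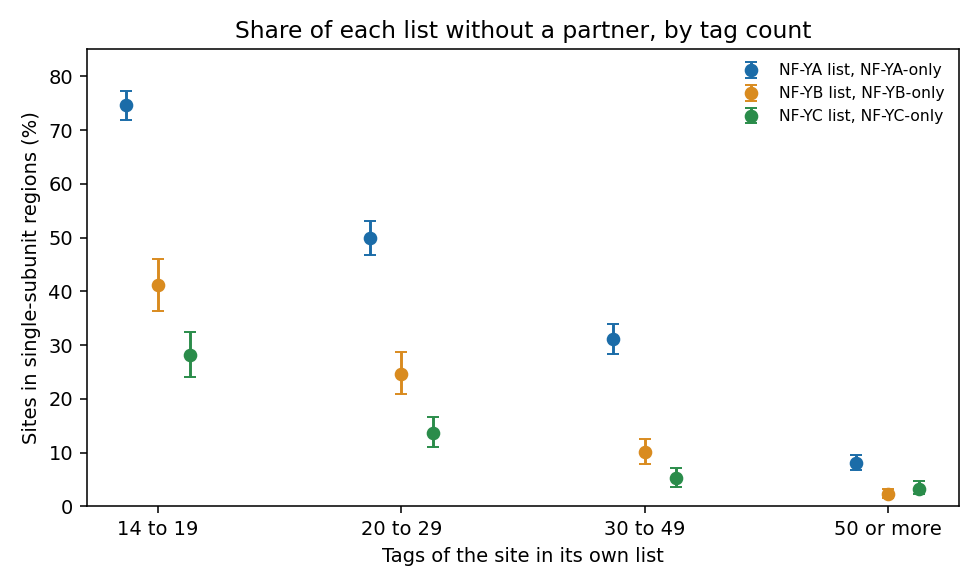
Percent of the sites of each list that lay in regions of that subunit alone (vertical axis), by the site's tag count in its own list (horizontal axis), with exact 95% binomial intervals over sites as bars. The NF-YC points go from 28.2% in the class of 14 to 19 tags to 3.33% in the class of 50 or more, and the NF-YA points lie highest in every class.

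The 12 NF-YC-only regions of most tags had 67 to 118 NF-YC tags and ranked between 98 and 519 in the NF-YC list. They lay on 9 chromosomes, and all 12 intervals were 40 bp wide, the narrowest width of the list. That width was common among NF-YC sites of 50 or more tags. It made up 66.7% of NF-YC-only sites there, 61.3% of those shared with NF-YA alone and 59.3% of those of all 3 subunits. Of the 6 shared with NF-YB alone it made up 33.3%. Positions are given in build mm9 as deposited. The first was chr13:109106471-109106511, with 118 tags and a fold of 35.66. Its nearest NF-YB site lay 157580 bp away and its nearest NF-YA site 157620 bp away. The second was chr11:96147871-96147911, with 117 tags and a fold of 28.28, and the nearest NF-YA site was at 25220 bp. The third, chr9:21172051-21172091, had 106 tags but a fold of 12.81, since its input count of 10 tags was the highest recovered among NF-YC-only regions. The NF-YC-only region at chr2:169868491-169868531 had 103 tags and lay 281160 bp from any NF-YA site. The region at chr8:122377571-122377611 had 102 tags and a fold of 41.09, with both other subunits about 13 kb away (13090 and 13100 bp). These 5 regions were thus strong in the NF-YC library and apart from any other called site by more than 10 kb.

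The next regions by tag count were closer in part to other sites. The region at chr11:61080691-61080731 had 93 NF-YC tags and an NF-YB site at 4480 bp. The region at chr15:102811951-102811991 had 90 tags and no other region within 27 kb (27910 bp to the nearest, itself NF-YC-only). The region at chr6:136502431-136502471 had 79 tags and its nearest neighbour at 250370 bp. A further NF-YC-only region lay on chromosome 11, at chr11:96298011-96298051, with 69 tags. The region at chr17:34259311-34259351 also had 69 tags, and that at chr6:92191331-92191371 had 68 tags with an NF-YA site at 5990 bp. The last of the 12, chr1:121199211-121199251, had 67 tags, an NF-YB site at 2090 bp and an NF-YA site at 2820 bp. In all, 3 of the 12 had an NF-YA or NF-YB site within 10 kb.

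Ranking by fold brought other regions forward. The highest fold was 73.73, at chr5:113547911-113547971 with 61 tags, which ranked 62 in the NF-YC list by fold and 630 by tags. It was followed by chr16:13972351-13972391 (fold 53.18, 44 tags), chr7:129334771-129334811 (fold 42.3, 35 tags), the chromosome 8 region named above (fold 41.09) and chr12:106820831-106820871 (fold 37.47, 31 tags). All of these but the chromosome 8 region had a recovered input count of 1 tag, the lowest that could be recovered, where the fold may reflect a floor. At the low end, 5 regions with 14 tags were chr1:94727671-94727731 and chr3:88448251-88448311, each with a fold of 8.46, and chr2:168821731-168821871, chr2:169609511-169609711 and chr2:173182611-173182651, each with a fold of 16.92. Regions of 14 tags and 1 input tag thus stood above the third strongest region by fold, with its 106 tags.

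The lists bound how many NF-YA and NF-YB tags these regions could have held. An NF-YA site needed 14 tags and a fold of at least 7, and an NF-YB site 15 tags and the same fold. The input tags at each site were recovered from the deposited fold, which for 267 of the 278 regions equalled, within 0.005, the NF-YC tags over a whole, depth-scaled count of input tags. From that number follow the fewest NF-YA or NF-YB tags that would have met both minima. The bound assumes that the same input tags would have been counted for the other subunits and that no other criterion of the caller failed, such as the 2 directional tags required on each side. The first assumption held in part: where the partner was called, the recovered input count was the same as at the NF-YC site in 66.5% of 2103 NF-YA pairs and 60.8% of 1643 NF-YB pairs, and within 1 tag in 90.7% and 90.1%. Bounds are therefore also given with 1 input tag more, an alternative added after the data were seen. Since the absence of a call chose the regions, the bounds restate that choice as a number of tags and are no finding of their own.

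For the chromosome 13 region with 118 NF-YC tags, fewer than 24 NF-YA tags and fewer than 29 NF-YB tags follow under these assumptions. With each library scaled to its kept tags, that is at most 0.193 of its NF-YC signal for NF-YA and 0.195 for NF-YB. The chromosome 8 region with 102 tags had the lowest bounds, 0.165 for NF-YA (fewer than 18 tags) and 0.169 for NF-YB (fewer than 22 tags). With 1 input tag more, the bounds of the chromosome 13 region would be 0.244 for both subunits, and those of the chromosome 8 region 0.224 and 0.226. The chromosome 11 region with 117 tags was bounded at 0.246 for both, from fewer than 30 and 36 tags. The chromosome 9 region with 106 tags was bounded only at 0.543 for both, since its 10 input tags raised the minima to 59 and 71 tags. Over the 12 regions of most tags the bound ran from 0.165 to 0.555 for NF-YA and from 0.169 to 0.557 for NF-YB. With 1 input tag more it reached 0.619 for both, at the chromosome 11 region with 93 tags.

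For most of the regions the bound was loose. Its median over the 267 regions was 0.806 of the NF-YC signal for NF-YA (0.921 with 1 input tag more) and 0.767 for NF-YB (0.822). Both bounds lay under 0.5 in 37 of the 267 regions, which had a median of 41 NF-YC tags, the lowest having 26. With 1 input tag more they did so in 25 regions. In the class of 14 to 19 NF-YC tags, all 130 regions with an input count had NF-YA bounds between 0.679 and 0.937, so at this depth a signal somewhat below that of NF-YC could not be told from none. In the class of 50 or more tags, 15 of the 26 regions with an input count were bounded under 0.5 for NF-YA and the same number for NF-YB.

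Regions where a partner was called give the scale of these ratios, but not a comparison, since a called site had to exceed the same minima. Over the 862 shared regions with 50 or more NF-YC tags, the median ratio of NF-YA to NF-YC was 1.47, the 5th percentile 0.513 and the lowest 0.197, and 40 of them (4.64%) lay under 0.5. For NF-YB over 744 such regions the median ratio was 0.949, the 5th percentile 0.316 and the lowest 0.129, with 109 (14.7%) under 0.5.

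**Figure D2:**
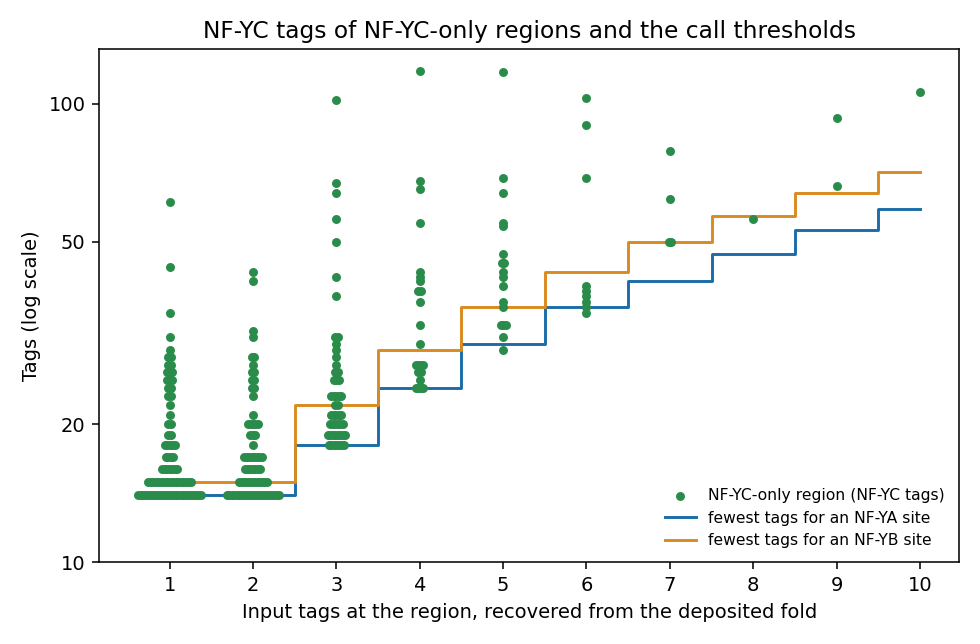
NF-YC tags (vertical axis, log scale) of the 267 NF-YC-only regions with a recovered input count, against that count (horizontal axis). Points are regions, spread sideways only to separate ties, and the lines give the fewest tags that an NF-YA or NF-YB site would have needed. Most points sit on or near the lines, and the region of 118 tags at 4 input tags stands well above its minima of 24 and 29.

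Mean input tags of the kinds of region lay close together at low NF-YC tag counts and further apart at high ones. At high counts they were higher at NF-YC-only sites than at sites of all 3 subunits. No recovered count can be under 1, and the caller's minimum fold limits the input tags that a site of few NF-YC tags can have. In the class of 14 to 19 tags the counts ran only from 1 to 3 in every kind. The closeness of the means there was thus largely fixed by the calling rule and is no finding. That limit rises with the tag count, so the kinds had more room to differ at high counts. With 14 to 19 NF-YC tags, NF-YC-only sites had a mean of 1.64 input tags (SD 0.682 over 130 sites) and sites of all 3 subunits 1.71 (SD 0.697 over 160). With 20 to 29 tags these means were 2.44 (SD 1.08 over 73) and 2.21 (SD 0.981 over 282). Sites shared with NF-YA alone had 2.57 in that class (SD 1.05 over 168). With 30 to 49 tags NF-YC-only sites had 4.05 (SD 1.51 over 38) and sites of all 3 subunits 3.12 (SD 1.59 over 482). Sites shared with NF-YA alone had 3.91 there (SD 1.59 over 162). With 50 or more tags the NF-YC-only mean was 5.35 (SD 2.21 over 26), against 4.25 (SD 2.21 over 709) with all 3 subunits and 4.94 (SD 2.17 over 121) with NF-YA alone. That class has no upper end, so tag counts within it were not matched between kinds. It held 30 NF-YC-only sites, of which 26 had an input count. All NF-YC-only sites without a count, in any class, were 100 bp wide or more, so these means leave out some wide sites. The median fold of the sites with 30 to 49 tags was 11 in NF-YC-only regions and 15.7 in regions of all 3 subunits, and with 50 or more tags 16 and 24.2. Sites shared with NF-YB alone were few. Their mean input was 4.5 (SD 1.45 over 12) with 30 to 49 tags and 4.8 (SD 1.92 over 5) with 50 or more. A mean above that of all 3 subunits was thus not particular to NF-YC-only sites. The part of local input signal in the NF-YC calls was not tested.

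**Figure D3:**
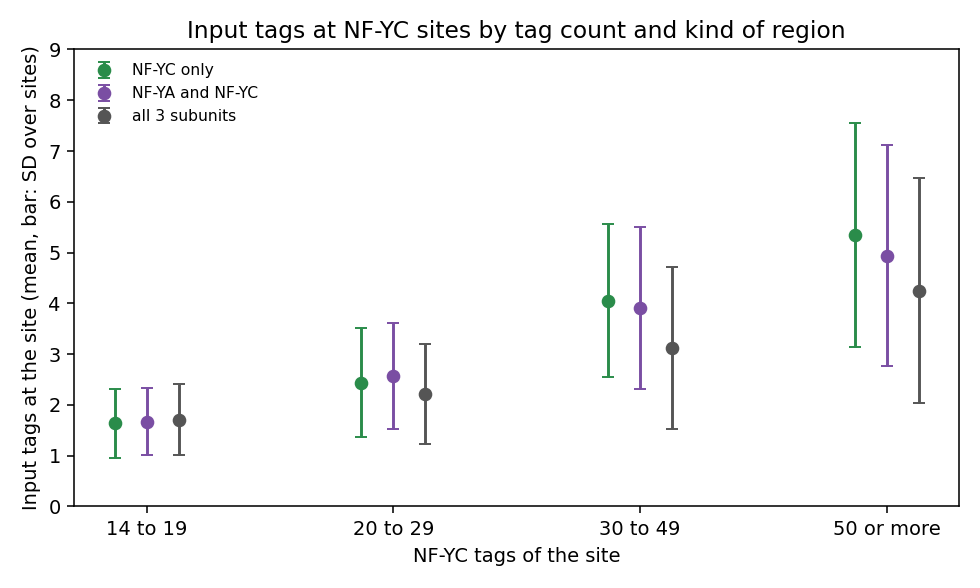
Mean input tags recovered at NF-YC sites (vertical axis, bars are the SD over sites) by NF-YC tag class (horizontal axis) for 3 kinds of region. Sites shared with NF-YB alone are not drawn. In the class of 30 to 49 tags the NF-YC-only mean of 4.05 lies near that of sites shared with NF-YA alone (3.91) and above that of regions of all 3 subunits (3.12).

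Taken over all tag counts, widths of the called intervals were much alike between kinds of region, but within tag classes they differed in part. NF-YC-only intervals had a median width of 60 bp, and 110 of 278 (39.6%, 33.8 to 45.6) had the 40 bp minimum, against 39.6% of sites shared with NF-YA alone (35.7 to 43.6) and 44.6% of those in regions of all 3 subunits (42.2 to 46.9). Within tag classes, intervals over 60 bp made up 42.7% of NF-YC-only sites (34.1 to 51.7) and 50.6% of sites of all 3 subunits (42.8 to 58.3) at 14 to 19 tags. The shares were 32.9% (22.7 to 44.4) and 46.6% (40.9 to 52.3) at 20 to 29 tags, and 10.5% (2.94 to 24.8) and 33.5% (29.5 to 37.8) at 30 to 49 tags. At 50 or more tags the order was the opposite, with 20% (7.71 to 38.6) and 17.8% (15.1 to 20.8). The binomial intervals overlapped in every class but that of 30 to 49 tags. In that class sites shared with NF-YA alone lay between, at 23.8% (17.6 to 31). Intervals wider than 200 bp numbered 10 of 278. The widest were on chromosome Y, chrY:1790651-1792071 at 1420 bp (53 tags, fold 10.15) and chrY:2786951-2788211 at 1260 bp (60 tags, fold 8.16). The next had 260 bp each, at chr2:148526931-148527191 (21 tags), chr3:137801271-137801531 (14 tags) and chr11:59990291-59990551 (19 tags).

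A limit longer than 200 bp removed few of the members, whereas a shorter one added more. The NF-YC-only region closest to another subunit lay at chr7:26052831-26052871 with 39 tags, 220 bp from an NF-YA site and 270 bp from an NF-YB site. It was followed by the chromosome Y region of 1260 bp (230 bp from an NF-YB centre), chr10:118677671-118677891 (29 tags, 270 bp from NF-YB and 340 bp from NF-YA), chr13:107736851-107736931 (15 tags, 270 bp from NF-YA) and chr1:37039831-37039891 (18 tags, 390 bp from NF-YA). On the other side of the limit, the NF-YC sites farthest from their partner were chr12:109417871-109418091 (33 tags) and chr16:38089051-38089411 (108 tags), each at 190 bp. In 2 of the 278 regions the printed interval overlapped that of an NF-YB site: the chromosome 10 region by 20 bp, and the chromosome Y region of 1260 bp, which contained the whole 440 bp of an NF-YB site of 33 tags. Chaining at 500 bp left 273 NF-YC-only regions and at 1000 bp 265, whereas 100 bp gave 325, 50 bp 569 and overlapping intervals 533.

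Beyond the limit, NF-YC-only regions lay at ordinary distances from the rest of the NF-Y map. The nearest NF-YA site was at a median of 75.2 kb (quartiles 22.1 and 254 kb), the nearest NF-YB site at 150.0 kb (40.8 and 456 kb) and the nearest other NF-YC site at 140.2 kb (34.3 and 486 kb). The NF-YA list is the longest, so a nearer NF-YA site does not show a preference. NF-YB-only regions had like distances, 71.1 kb to NF-YA and 154 kb to NF-YC. Within 1 kb of an NF-YA site lay 11 NF-YC-only regions (3.96%), and within 10 kb 43 (15.5%). An NF-YA site lay within 1000 kb of 263 of the 278 (94.6%), and the most distant was 3661 kb away.

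**Figure D4:**
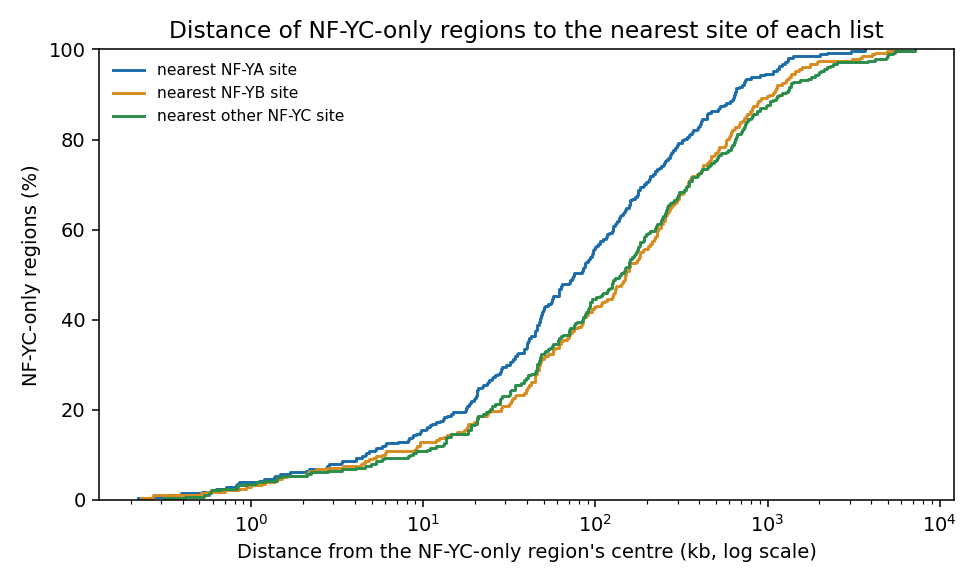
Cumulative percent of the 278 NF-YC-only regions (vertical axis) by distance from the region's centre to the nearest site of each list (horizontal axis, kb, log scale). The NF-YA curve lies to the left, with a median of 75.2 kb, and the NF-YB and NF-YC curves run close together, with medians of 150.0 and 140.2 kb.

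Counting regions of every kind, 51 NF-YC-only regions (18.3%, 14 to 23.4) had a neighbour within 10 kb. The share was 18.3% for regions of all 3 subunits (16.5 to 20.2), 14.8% for NF-YB-only (11.4 to 18.8) and 17.8% for NF-YA-only regions (16 to 19.7). It was 30.4% for the 56 regions that NF-YC shared with NF-YB alone (18.8 to 44.1), the highest of all kinds. The interval of the NF-YC-only share overlapped each of these. The neighbours within 10 kb were regions of all 3 subunits in 20 cases, NF-YA-only in 10, NF-YB-only in 6, NF-YA with NF-YB in 5, NF-YA with NF-YC in 5, NF-YC-only in 4 and NF-YB with NF-YC in 1. At any distance, the nearest region was itself NF-YC-only for 24 of 278 (8.63%, 5.61 to 12.6), beside a share of 5.2% of all regions. An NF-YC-only region was the nearest neighbour of 4.87% of the regions of all 3 subunits (3.9 to 6) and of 4.16% of the NF-YB-only regions (2.39 to 6.66). The interval of the 8.63% overlapped both of these. NF-YB-only regions had the like trait: their nearest region was NF-YB-only for 45 of 385 (11.7%, 8.65 to 15.3), beside 7.2% of all regions. Regions that were each other's nearest both count in such shares, which the intervals ignore.

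The 4 NF-YC-only regions with another NF-YC-only region within 10 kb formed 2 pairs. On chromosome 7, chr7:148007571-148007611 (23 tags, fold 9.27) and chr7:148008151-148008191 (42 tags, fold 16.92) lay 580 bp apart. On chromosome 5, chr5:113703611-113703671 (26 tags, fold 15.71) and chr5:113705031-113705091 (40 tags, fold 9.67) lay 1420 bp apart. No region of another kind lay between the members of either pair. In the chromosome 5 pair the region with more tags had the lower fold.

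NF-YC-only regions occurred on all chromosomes with NF-YC sites. The most were on chromosome 2 (26), chromosome 5 (23), chromosome 4 (22) and chromosome 17 (19). As a share of a chromosome's NF-YC sites they were most frequent among the autosomes on chromosome 15, at 17.6% (10.8 to 26.4, 18 of 102), and chromosome 13, at 16.2% (9.53 to 24.9, 16 of 99). They were least frequent on chromosome 8, at 5.62% (2.6 to 10.4, 9 of 160), and chromosome 1, at 5.97% (2.61 to 11.4, 8 of 134). The intervals of these 4 chromosomes overlapped, apart from chromosome 15 with chromosome 8, which were picked as the extremes of the autosomes. The 4 NF-YC-only regions of the X chromosome all had exactly 14 tags, the list minimum, out of 59 NF-YC sites there (6.78%, 1.88 to 16.5). Chromosome Y held 3 NF-YC sites, of which 2 were NF-YC-only.

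**Figure D5:**
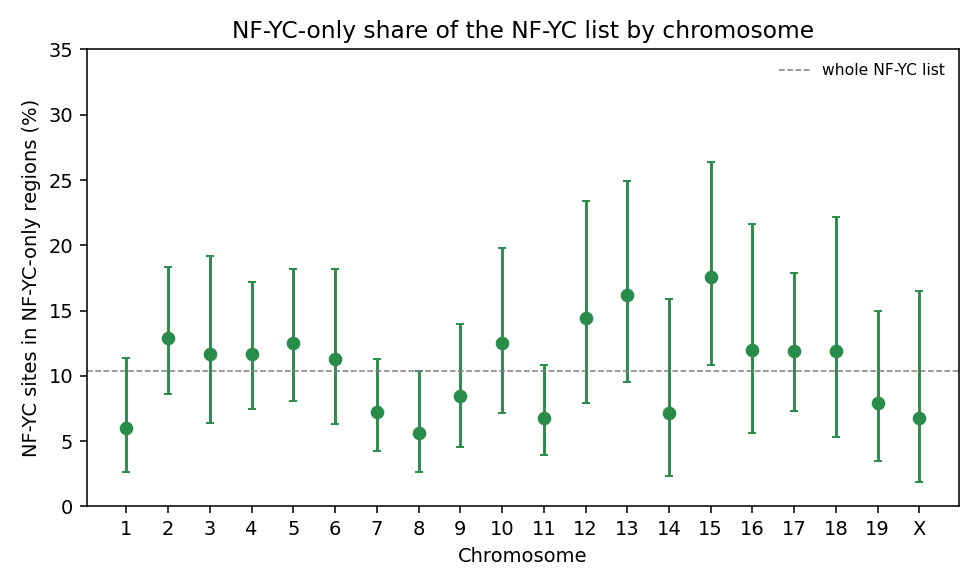
Percent of the NF-YC sites of each chromosome that lay in NF-YC-only regions (vertical axis), with exact 95% binomial intervals as bars, for the autosomes and the X chromosome (horizontal axis). The dashed line is the 10.4% of the whole NF-YC list, and most intervals include it.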

How the data were processed

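Per the submitters' processing notes, Bowtie aligned the reads to mm9. Sites were called by the authors in each library separately with SISSRs 1.4 against 1 input library, per the file headers, with an e-value of 10, a p-value threshold of 0.001, a 20 bp scanning window and 1 tag kept per position. The deposited tag counts are whole, unscaled tags per site. As deposited, the fold is a ratio of site tags to scaled input tags, and the deposited p-value is the caller's own.

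Input tags were recovered where the fold matched a whole count within 0.005, starting at 1. Regions, distances (between centres) and exact intervals were computed in Python 3.11.15 with numpy 2.4.6, pandas 2.3.3 and scipy 1.17.1, and figures with matplotlib 3.10.9. The region rule and the input recovery were run on simulated data with narrow, well separated sites and folds made by the formula that the recovery inverts. This checked the code only, and not how either performs on wide or crowded sites. No sequence or gene annotation of mm9 was used here, so CCAAT boxes and genes at the regions were not analysed. Named regions are the 12 of most tags, 5 each of highest fold, fewest tags, greatest width and closest partner, close pairs and chromosome Y. The regions and rules were chosen with earlier results of these data known. The input count bound and tag classes were added after the data were seen.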

Additional observations from a re-analysis of the deposited data

How the results depend on the processing

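No paired analysis was possible because there was 1 library per subunit, and no replicate could be left out. Of 56 alternative values, 1 of them added after the data were seen, 31 stayed within the main value's interval (for numbers of regions, within 1.5 times) and 25 moved. The number of NF-YC-only regions, 278, became 569 with chaining at 50 bp, 533 with overlapping intervals, 534 with lists of equal length, 132 with only sites at or above each list's median tag count, 147 with NF-YC sites of 20 or more tags and 168 with NF-YC folds of 10 or more. The last pair of settings cut the NF-YC list alone, the median tag count cut all 3 lists, and equal length removed NF-YA and NF-YB sites. As a share of NF-YC sites, 10.4% became 21.3% at 50 bp, 12.1% at 100 bp, 19.9% with overlapping intervals, 20% with equal lists, 16.6% with sites at or above the median fold, 8.87% with 20 or more tags in every list, 6.65% with 20 or more NF-YC tags and 8.11% with NF-YC folds of 10 or more. The median tag percentile, 18.8, became 28.3 at 50 bp, 32.9 with overlapping intervals and 26.3 with sites at or above the median tag count. The share with a neighbour within 10 kb, 18.3%, became 60.1% at 50 bp, 30.2% at 100 bp, 13.6% at 1000 bp, 57.4% with overlapping intervals and 11.3% with sites at or above the median fold. It was 5.04% within 1 kb, 48.9% within 50 kb and 61.2% within 100 kb. These shares are counted among the 25 that moved, but a share at another distance is a different quantity and had to differ. At short chaining distances, sites of the same place count as separate neighbours. The settings for CCAAT boxes and gene starts were not run, since no mm9 sequence or annotation was used here. NF-YA or NF-YB binding that gave fewer than 14 or 15 tags at these depths could not enter a list.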

Other observations

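Chained within 100 kb of each other, 35 of the 278 NF-YC-only regions stood in runs, with 14 runs of 2 members and 2 longer runs, by a rule chosen after the values were seen. By the same rule 43 of the 385 NF-YB-only regions stood in runs, 1 of which had 3 or more members. The longest NF-YC-only run lay on chromosome 15, with 4 members over 120640 bp between the first and last centre and no region of any other kind among them. Its members were chr15:102811951-102811991 (90 NF-YC tags), chr15:102839851-102839911 (18 tags), chr15:102865031-102865071 (25 tags) and chr15:102932591-102932631 (25 tags), all of 40 or 60 bp. Their nearest NF-YA sites lay between 44740 and 137300 bp away and their nearest NF-YB sites between 31800 and 97850 bp. The other run lay on chromosome 17, with 3 members over 30760 bp: chr17:34259311-34259351 (69 tags), chr17:34276491-34276531 (16 tags) and chr17:34290031-34290151 (14 tags). A single region of another kind lay within it, and the nearest NF-YA site was 4050 bp from the middle member. Each run thus held 1 of the 12 NF-YC-only regions of most tags, beside members of 14 to 25 tags.

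Chromosome Y held 8 sites in all, and NF-YC sites there were wide in all 3 cases, at 1420, 1260 and 380 bp, against a median of 60 bp in NF-YC-only regions. The 380 bp site, with 47 tags, lay in the chromosome's region of all 3 subunits, where the NF-YA site was 460 bp and the NF-YB site 520 bp wide. The whole counts of input tags could not be recovered from the fold at either NF-YC-only region of chromosome Y.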
